A study of Mus musculus with 8 samples.

Results

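H3K27ac peaks at the genes of 3 class I histone deacetylases, Hdac1, Hdac2 and Hdac3, were taken from peak lists of mouse small intestinal crypts, the glands at the base of the villi where the epithelial stem cells sit. H3K27ac, the acetylated form of lysine 27 of histone H3, marks promoters and enhancers in use and was measured here by chromatin immunoprecipitation with sequencing (ChIP-seq) with the Abcam antibody ab4729. The members were all peaks that overlapped chr4:129170000-129245000 (Hdac1), chr10:36670000-36745000 (Hdac2) or chr18:38075000-38135000 (Hdac3) in build mm9. That gave 41 of the 117035 peaks in the 4 lists. Joined wherever they overlapped by 1 bp or more, they formed 18 of 43091 regions.

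Per the labels, the fed mice had free access to food for 24 h and the fasted mice had water but no food for 24 h. Each group held male and female mice 6 to 12 weeks old, from the Lgr5EGFP-IRES-CreERT2/+ and C57BL/6J strains, and the labels do not say which strain entered which pool. Lgr5EGFP-IRES-CreERT2 places a green fluorescent protein and an inducible Cre recombinase under the gene of a crypt stem cell marker. Crypts of 4 animals were pooled for each library, and the libraries are named by the replicate numbers in the labels, fed 1, fed 4, fasted 2 and fasted 5. Both groups were handled throughout crypt isolation with 100 nM trichostatin A, an inhibitor of the deacetylases that these genes encode. The material was whole crypts, so stem, Paneth and progenitor cells were measured together. Its identity was not checked against marker genes, whose mm9 positions were not used here.

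Histone deacetylases take acetyl groups off histone tails, which generally accompanies lower transcription. HDAC1 and HDAC2 are close paralogs that work in the Sin3, NuRD and CoREST complexes. HDAC3 is the catalytic subunit of the NCoR and SMRT corepressor complexes. In the intestinal lining HDAC1 and HDAC2 are known for their part in crypt cell proliferation and differentiation, and HDAC3 for lipid metabolism and the response to microbes. The series title concerns ketone body signalling, and the ketone body beta-hydroxybutyrate, made in fasting, is known as an inhibitor of class I deacetylases. The class also holds HDAC8, which is not analysed here.

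The lists differed in length as a whole, and this touches every comparison below. The fasted lists had 37974 (fasted 2) and 35917 peaks (fasted 5) over 99.2 and 109.1 Mb, and the fed lists had 27640 (fed 1) and 15504 (fed 4) over 48.8 and 21.9 Mb. Covered length over the whole lists was 2.95 times higher in the fasted mean than in the fed mean, and 2.14 times higher than in fed 1 alone. No read counts come with the peaks, so the depth behind each of them is unknown, and how far it sets these lengths was not tested. Each peak carries the authors' own score. A score was read as its percentile, that is, how many percent of the library's own peaks scored as high or lower. A percentile ranks a peak within its own list only. Each difference between the groups was set against an exact permutation test (two-sided) over the libraries, whose smallest possible p with 2 against 2 is 0.333.

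The place of each gene among its neighbours was read from RefSeq's table for another build, GRCm38.p6, for names and spacing only. There Hdac2 stands alone, 139899 bp from Hs3st5 on one side and 131353 bp from Marcks on the other. The other genes are crowded. Hdac1, 26543 bp long, lies 122 bp from Marcksl1, a gene for an actin-regulating protein, and 5697 bp from Lck, which encodes a T cell tyrosine kinase. Hdac3, 18045 bp long, lies 1348 bp from Diaph1, a gene for an actin-nucleating formin, and 38 bp from Rell2, which encodes a membrane protein of the RELT family. A window of 75 kb at Hdac1 or 60 kb at Hdac3 can therefore hold peaks of neighbouring genes, and no peak was assigned to a gene's promoter, exon or intron.

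RefSeq's promoter table matched 1 of the 3 genes, Hdac2. The sequence is shown because the Hdac2 window, unlike the others, held a single region and holds no other gene by the spacing above. It runs from 250 bases before the transcription start to 50 after it, on the plus strand of GRCm38.p6, and capitals mark a GC box (GGGCGG, searched on both strands and here on the minus strand) at positions 231 to 236 of the 300, counted from the 5′ end.

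Hdac2 promoter: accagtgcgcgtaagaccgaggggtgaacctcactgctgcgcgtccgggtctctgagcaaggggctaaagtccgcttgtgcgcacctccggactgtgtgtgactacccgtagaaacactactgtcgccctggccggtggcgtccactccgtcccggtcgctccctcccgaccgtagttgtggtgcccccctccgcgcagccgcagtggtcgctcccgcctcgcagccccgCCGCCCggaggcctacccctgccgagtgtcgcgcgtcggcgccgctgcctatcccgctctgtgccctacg

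The Hdac2 promoter was rich in CG pairs, with 36 in 300 bases against a median of 7 over the 32851 promoters of the table, and 94.4% of promoters had that many or fewer. Its GC content was 69.7%, against a median of 52.7%. A GC box on either strand is found in 35.7% of all promoters in the table. The letters of a CCAAT box (CCAAT, 37.4% of promoters), a TATA box (TATAAA, 13.6%) and an E-box (CACGTG, 7.2%) were not in the Hdac2 window of 300 bases. Where this sequence lies relative to the mm9 peaks was not determined.

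Hdac3 had the largest share of its window under peaks of the 3 loci in all 4 libraries. Peaks in its window numbered 4 in fasted 5, 6 in fasted 2, 6 in fed 1 and 2 in fed 4. The fasted peaks covered 20333 bp (fasted 5) and 18290 bp (fasted 2), or 33.9% and 30.5% of the 60 kb window. The fed peaks covered 10336 bp (fed 1) and 2074 bp (fed 4), or 17.2% and 3.46%. The groups did not overlap, and fed 1 lay well apart from fed 4, between it and the fasted libraries. Here and below a spread is the SD of the 2 libraries of a group. Covered length was 19311.5 ± 1444.6 bp in the fasted and 6205 ± 5842.1 bp in the fed libraries (n = 2), a ratio of 3.11 (exact permutation p = 0.333). Against fed 1 alone the ratio was 1.87, below the 2.14 of the whole lists, and against fed 4 alone it was 9.31. Of the windows of 60 kb that tile the autosomes and hold a peak in any library, 80.8% also had both fasted libraries above both fed. Of those with a peak in all 4 libraries, as at Hdac3, 95.2% did. The order of the groups at Hdac3 was thus that of nearly all such windows.

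Most of the Hdac3 signal came from a single broad region at chr18:38082148-38095537, 13390 bp wide, the only one of the 18 regions with a peak in all 4 libraries. Fasted 5 had 1 unbroken peak over all of it, with a score at percentile 93.3 of its list. Fasted 2 had 3 peaks there covering 12056 bp, the strongest at percentile 96.6. Fed 1 had 4 peaks covering 7910 bp within a shorter span of 9952 bp, with gaps between them of 2042 bp in all. Its strongest peak reached percentile 88.1. Fed 4 had 2 peaks covering 2074 bp at the right end alone, at percentiles 3.3 and 27.8. The right edge of this acetylated stretch was placed alike in all 4 libraries, with the last peak ending at 38095537 in fasted 5, 38095329 in fasted 2, 38095237 in fed 1 and 38095032 in fed 4. Those ends lie within 505 bp of each other, whereas the left ends were spread over 10772 bp. The first peak began at 38082148 in fasted 5, 38082948 in fasted 2, 38085286 in fed 1 and 38092920 in fed 4. Most of the spread on the left was thus due to fed 4, the shortest list. The strongest peak of fed 1 (38091736 to 38095237) and both fed 4 peaks lay at that right end.

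A further 2 regions of the Hdac3 window had a peak in every library but fed 4. The region at chr18:38111943-38116031 was 4089 bp wide and stood at percentile 79.1 in fed 1, 74.1 in fasted 2 and 81.2 in fasted 5. Fed 1 fell between the fasted libraries in rank, although its peak there was 1601 bp wide against 4031 and 3994 bp. The region at chr18:38128438-38130336 stood at percentile 5.1 in fed 1, 48.0 in fasted 2 and 55.4 in fasted 5. Its fed 1 peak, 825 bp wide, was among the weakest of that list. Small peaks of a single fasted library made up the rest, 1 in fasted 2 that crosses the left edge of the window (percentile 1.1) and 1 in fasted 5 (percentile 33.1).

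**Figure D1:**
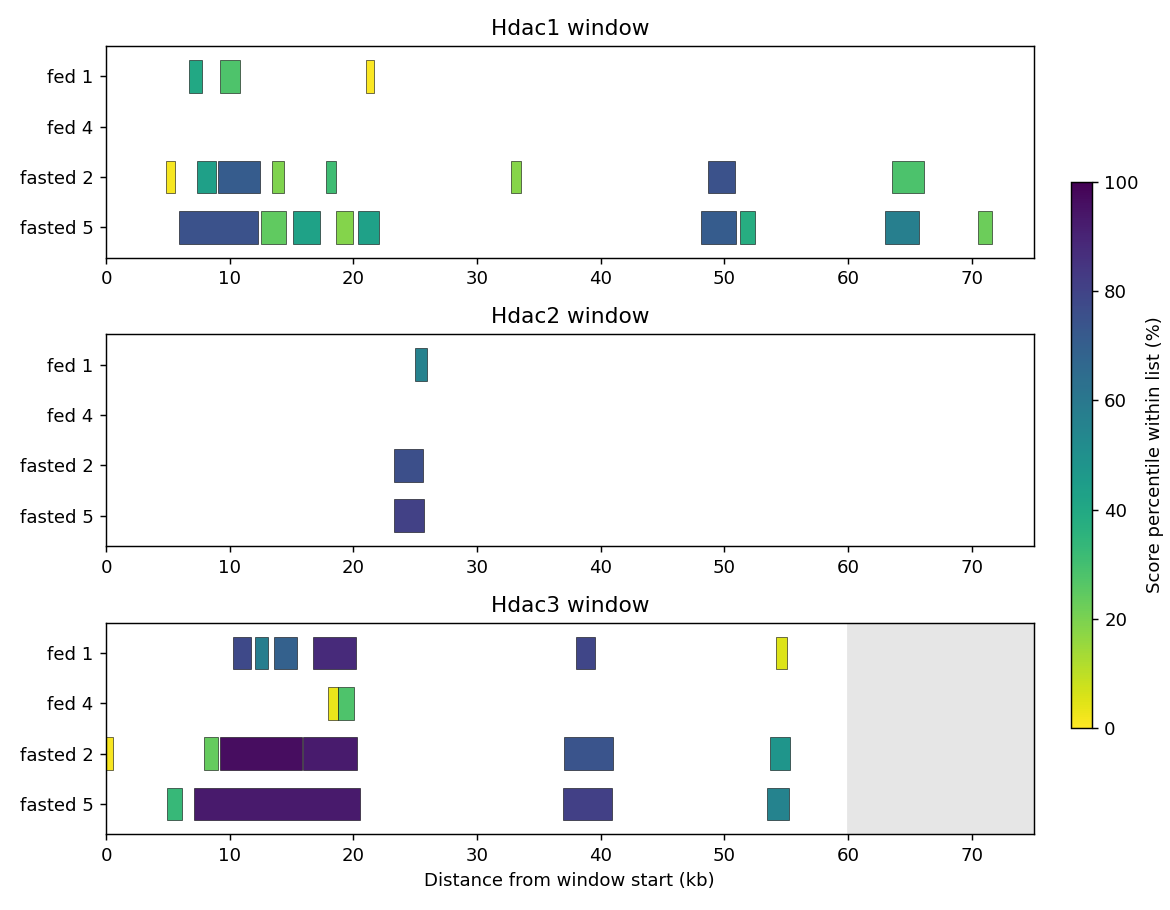
H3K27ac peaks at the Hdac1, Hdac2 and Hdac3 windows, with distance from the window start in kb on the horizontal axis, a row for each library, and colour for the score percentile of each peak within its own list; grey marks the part beyond the 60 kb Hdac3 window. The broad Hdac3 region is 1 unbroken peak in fasted 5, 3 peaks in fasted 2, 4 in fed 1 and 2 narrow peaks at its right end in fed 4, while fed 4 has no peak in the Hdac1 and Hdac2 windows.

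Hdac2 was marked at a single place. The window held 1 peak in each library but fed 4, which had none, and the 3 peaks overlapped in a region of 2706 bp at chr10:36693277-36695982. The peak of fed 1 was 1008 bp wide, that of fasted 2 was 2380 bp and that of fasted 5 was 2410 bp. The fasted peaks matched each other closely, with starts 17 bp and ends 47 bp apart. The bases under both, divided by those under either (the Jaccard index), came to 0.974. The fed 1 peak began 1698 bp to the right of the fasted 2 start and ended 326 bp beyond its end. In all, 279 bp under the fed 1 peak lay under no fasted peak, and these were the only fed bases outside fasted peaks at any of the 3 loci. At Hdac1 and Hdac3 100.0% of the bases under fed peaks also lay under a fasted peak, as did 90.4% over the whole lists.

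The Hdac2 peak stood at percentile 56.2 in fed 1, 75.9 in fasted 2 and 80.8 in fasted 5. Each of these peaks was above the middle of its list by score, while fed 4 had no peak to rank. By width, the fed 1 peak was below the median peak of its list, 1365 bp. Both fasted peaks were wider than their own medians, 1709 (fasted 2) and 2077 bp (fasted 5). Covered length was 2395 ± 21.2 bp in the fasted and 504 ± 712.8 bp in the fed libraries (SD, n = 2), 4.75 times as much (exact permutation p = 0.333). Against fed 1 alone it was 2.38 times, near the 2.14 of the whole lists. A peak in both fasted libraries with none in fed 4 was found at 43.9% of the 75 kb windows that had a peak in both fasted libraries.

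The Hdac2 region also stood far from any other. No peak of any library lay within 2.41 Mb to its left, and the next region to its right was 159.2 kb away. The median distance from a region to its nearest neighbour was 879 bp over all 43091 regions, and 1.29% of regions were at least as isolated as the Hdac2 region. In fed 4 the nearest peak was 2456204 bp from it.

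In the lists as deposited, the Hdac1 window held the most peaks in the fasted libraries and the largest difference in covered length between the groups, though it is also longer than the Hdac3 window. There were 9 peaks in fasted 5, 8 in fasted 2, 3 in fed 1 and none in fed 4. Fed 1 peaks covered 3255 bp, fasted 2 peaks 12973 bp and fasted 5 peaks 21659 bp. The feeding states did not overlap, and the 2 fasted values lay further apart here than at the other loci. The means were 17316 ± 6141.9 bp in the fasted and 1627.5 ± 2301.6 bp in the fed libraries (SD, n = 2), a ratio of 10.64 (exact permutation p = 0.333). Of all 75 kb windows with a peak in any library, 82.3% also had both fasted above both fed. In shortened lists the difference in covered length was larger at Hdac3 than at Hdac1. It was 14274.5 against 12028 bp at a score of 100 or more, and 15333 against 8739.5 bp at 200 or more. With 15504 peaks from each list it was 10409 against 8739.5 bp. The score minimums cut the fed lists hardest, and 200 or more left 3639 (fed 1), 640 (fed 4), 14195 (fasted 2) and 20009 peaks (fasted 5). No fed peak was left at Hdac1 in any of these cuts, so the Hdac1 differences are fasted lengths alone. In the full lists the Hdac1 ratio was 5.32 without fed 4, and without fed 1 there was none, since fed 4 had no peak there. Among 7151 windows of that length with peaks in fed 1 and both fasted libraries the median of the same ratio was 2.11, and 7.5% of windows were at or above that of Hdac1. The matching share was 40.6% for Hdac2, and 59.4% of 7917 windows of 60 kb for Hdac3.

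**Figure D2:**
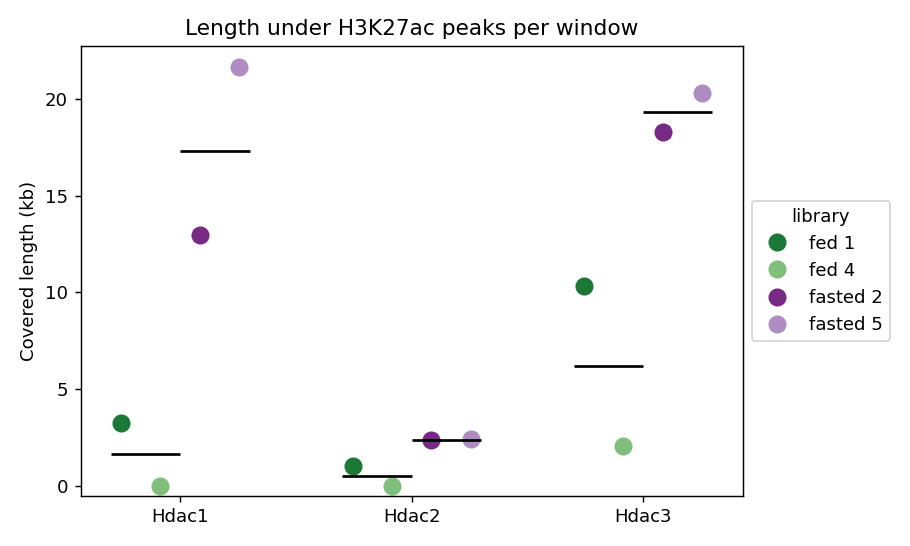
Length under H3K27ac peaks in the Hdac1, Hdac2 and Hdac3 windows in kb, with a point for each library and a black line for the mean of each feeding state (n = 2). Fasted points lie above fed points at each locus, Hdac1 shows the widest gap between the means (17316 against 1627.5 bp), and fed 4 is at 0 for Hdac1 and Hdac2.

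Peaks of the Hdac1 window fell into a crowded left part and 5 regions spread further right. The left part ran from 129174871 to 129192049 on chromosome 4 and held 7 of the window's 12 regions. Its widest region, chr4:129175931-129182409, was 6479 bp wide and held a 6325 bp peak in fasted 5 (percentile 74.8), 2 peaks in fasted 2 (the higher at percentile 71.3) and 2 in fed 1 (the higher at percentile 39.9). The third fed 1 peak, 585 bp wide at 129191042 to 129191626, was near the bottom of its list with percentile 0.6, and fasted 2 had no peak there. All fed peaks of the Hdac1 window lay in this left part.

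The strongest place without a fed peak was chr4:129218088-129220975, 2888 bp wide. It held the highest-scoring fasted 2 peak of the window (2165 bp, percentile 74.7) and a fasted 5 peak of 2888 bp at percentile 71.2. The nearest peak of fed 1 was 26461 bp away and that of fed 4 was 76674 bp away. Taking the lower of the fasted percentiles, it ranked at or above 93.2% of the 8319 regions of the genome that both fasted lists and neither fed list held. A further region of the same pattern at chr4:129233002-129236156 stood at percentiles 28.4 in fasted 2 and 57.2 in fasted 5. The remaining one, chr4:129182494-129184583, stood at 19.4 and 24.4. By the same rank among the 8319 regions, chr4:129233002-129236156 was at or above 38.8% of them and chr4:129182494-129184583 at or above 26.8%. These 3 were the only such regions among the 18 at the 3 loci, and 19.3% of all regions in the genome had that pattern. A further 7 regions of the Hdac1 window had a peak in 1 fasted library and no other, at percentiles of 1.4 to 42.5. Over the genome 33.0% of regions had a peak in 1 fasted library and no other. That left 2 regions with a fed peak.

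The highest score percentile in each window gave the same order of groups. At Hdac3 it was 96.6 in fasted 2 and 93.3 in fasted 5, and 88.1 in fed 1 and 27.8 in fed 4. At Hdac1 it was 39.9 in fed 1, 74.7 in fasted 2 and 74.8 in fasted 5. Hdac2 had the values of its single peak given above. With a library that had no peak set to 0, the fasted mean exceeded the fed mean by 54.80 points at Hdac1, 50.23 at Hdac2 and 36.96 at Hdac3 (each exact permutation p = 0.333, n = 2). The sizes depended on the fed libraries. Without fed 4 the differences were 34.86, 22.12 and 6.80 points, and without fed 1 they were 74.74, 78.33 and 67.11 points. Both fasted libraries were above both fed at each locus, as in 59.2% of the 75 kb and 58.2% of the 60 kb windows with a peak in any library.

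**Figure D3:**
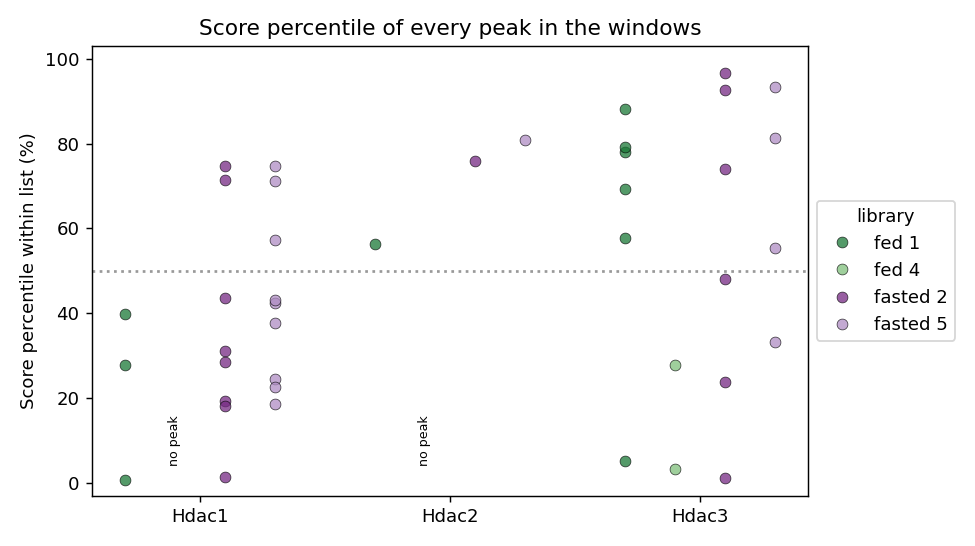
Score percentile of every peak in the Hdac1, Hdac2 and Hdac3 windows within its own list, with a point for each peak, a colour for each library and a dotted line at 50. Peaks at Hdac1 reach at most 74.8, the Hdac2 peaks lie between 56.2 and 80.8, and those at Hdac3 reach 96.6, with fed 1 at 88.1 and fed 4 at 27.8.

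Peak number separated the groups at Hdac1 and not at the other loci. The fasted lists also held more peaks as a whole (37974 and 35917, against 27640 and 15504 in the fed lists). What share of all windows has this order of peak number was not determined, so it cannot be read as particular to Hdac1. At Hdac3 the means were 5.0 ± 1.4 peaks in the fasted and 4.0 ± 2.8 in the fed libraries (SD, n = 2, exact permutation p = 1.0), and the groups overlapped. The difference turned to -1 peak without fed 4, and was 0 without fasted 2, 2 without fasted 5 and 3 without fed 1. At Hdac2 the difference was 0.5 peaks (exact permutation p = 1.0), 0 without fed 4 and 1 without fed 1. Hdac1 had 8.5 ± 0.7 fasted and 1.5 ± 2.1 fed peaks (SD, n = 2, exact permutation p = 0.333).

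A rank within each library puts the loci beside the rest of the genome in the same list. Each window was ranked by covered length among all windows of its length that tile the autosomes and hold a peak of that library. Hdac3 ranked at percentile 89.0 in fasted 5 and 85.3 in fasted 2, against 82.3 in fed 1 and 47.6 in fed 4. Fed 1 and the fasted libraries thus placed Hdac3 alike, and fed 4 placed it near the middle. Hdac1 ranked at 44.7 in fed 1, 72.4 in fasted 2 and 87.0 in fasted 5, and Hdac2 at 10.7, 22.7 and 21.7. Neither had a rank above 0 in fed 4, where they had no peak. Hdac2 was the lowest of the 3 in fed 1, fasted 2 and fasted 5, and Hdac3 the highest in all 4 libraries.

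**Figure D4:**
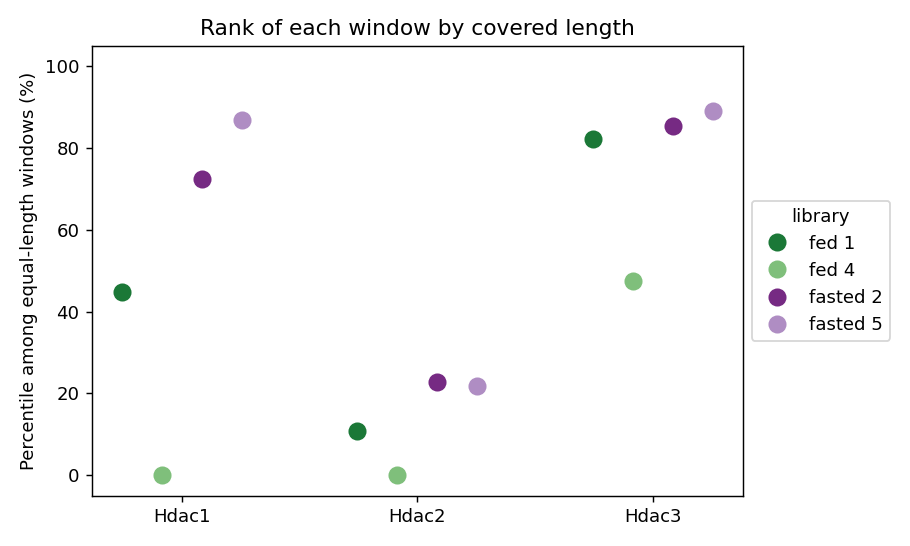
Percentile of the Hdac1, Hdac2 and Hdac3 windows by covered length among all windows of the same length that hold a peak of the same library, with a point for each library and 0 for a window with no peak. Hdac3 lies at 82.3 to 89.0 in every library but fed 4 (47.6), Hdac2 at 22.7 or below in each, and Hdac1 at 44.7 in fed 1 and 72.4 or above in the fasted libraries.

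Over the 3 windows together the libraries covered 14599 bp (fed 1), 2074 bp (fed 4), 33643 bp (fasted 2) and 44402 bp (fasted 5). The fasted libraries shared 29956 of the 48089 bp that either covered, a Jaccard index of 0.623, beside 0.65 over the whole lists. Fed 1 shared 13060 bp with fasted 2 (index 0.371, beside 0.396) and 14320 bp with fasted 5 (0.32, beside 0.368). With fed 4 it shared 2074 bp (0.142, beside 0.254). The closeness of the fasted pair varied by locus, from 0.41 at Hdac1 through 0.83 at Hdac3 to 0.974 at Hdac2. Of the bases under any peak, 16896 bp were covered in both fasted libraries and in neither fed library, 8036 of them at Hdac1, 1681 at Hdac2 and 7179 at Hdac3. A further 16873 bp were covered in 1 fasted library alone, 13263 of them at Hdac1. Each of these classes made up 34.9% of the bases under any peak at the 3 loci and 28.6% over the whole lists.

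The deposited file names carry the number 10 for fed 1 and fasted 2 and 11 for fed 4 and fasted 5, and what the number stands for is not stated. Within number 10 the fasted library covered 9718 bp more at Hdac1, 1372 bp more at Hdac2 and 7954 bp more at Hdac3. Within number 11 it covered 21659, 2410 and 18259 bp more. The direction was the same in both pairs at each locus, which was fixed in advance because the groups did not overlap. The whole lists differed 2.03 times within number 10 and 4.98 times within number 11.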

How the data were processed

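H3K27ac ChIP-seq peak lists of 2 fed and 2 fasted libraries were analysed. The 4 inputs were not analysed here. Each list holds the peaks of 1 library with the authors' deposited score, whose scale is not stated. The tools named in the submitters' processing notes are Bowtie 1.1.2, SAMtools 1.9, deepTools 1.5.11 and FastQC, with build mm9. Peak names point to MACS. No version, setting or control is given in the sources used here.

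Peaks overlapping a window by 1 bp or more were taken, and covered length was counted inside the window. Every region in the windows is described. Windows tiling chromosomes 1 to 19 gave ranks and background shares. Python 3.11.15, pandas 2.3.3 and NumPy 2.4.6 were used, and the functions were tested on simulated lists. P-values compare libraries, each a pool of animals. With 2 against 2 the exact permutation p is 0.333 whenever the groups do not overlap, whatever the spread between pools. Coordinates count from 1. Depth is unknown, so its precision cannot be given.

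The loci, windows and measures were chosen with earlier results of these data known. The ratios to fed 1 over windows and the isolation of regions were added after seeing the values. The alternatives were score minimums of 100 and 200, equal list lengths, other window limits, ties at their lower edge, shifted tiles, file numbers and leaving out each library. Other deacetylase and corepressor genes were not analysed, since no mm9 annotation was used.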

Additional observations from a re-analysis of the deposited data

How the results depend on the processing

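Of 123 alternatives run, 109 kept the direction of the difference between fasted and fed libraries, 10 gave a difference of 0 and 4 reversed it. No alternative could bring p below 0.333. Covered length kept its direction under every alternative but one, in which each list was cut at its best-scoring 21.9 Mb. The highest score percentile kept its direction with other windows, ties at their lower edge, within file numbers and without each library. For both measures the groups did not overlap at any locus. Leaving out a library or pairing by file number therefore could not change their direction and says nothing about stability. The same holds for peak number at Hdac1, and these cases are among the 109. In the 4 kinds of shortened list the highest percentile was not recomputed and a lost peak counts as 0. The direction kept in 10 of 12 such results thus says nothing about stability. The cut at 21.9 Mb leaves 2615 peaks of fasted 5 and 15504 of fed 4, and no peak of any library at Hdac1 or Hdac2. Covered length, peak number and highest percentile there thus all differed by 0. At Hdac3 the 4 libraries then still covered 6546, 2074, 10988 and 13390 bp (fed 1, fed 4, fasted 2, fasted 5). When each list was cut at its 15504 best-scoring peaks, Hdac1 had no fed peak and 5524 and 11955 bp in fasted 2 and fasted 5. The peak number at Hdac3 was the unstable result. Its difference of 1 turned to -1 with the lists cut at 15504 peaks or at 21.9 Mb, and with the window narrowed by 10000 bp on each side. It was 0 within file number 10, and ranged from -1 to 3 when each library was left out. At Hdac2 the difference in peak number was 0 within file number 10 and ranged from 0 to 1 when each library was left out. No paired analysis was possible because the labels give the fed and fasted libraries no shared replicate number. The file numbers give 1 library of each state per number, so those differences are values with no test.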
